A study of Rattus norvegicus with 4 samples.

Results

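Solute carriers are the membrane proteins, numbered by family as Slc1, Slc2 and so on, that move amino acids, sugars, ions, metals, vitamins and metabolites across cell and organelle membranes. All probe sets of the deposited table whose platform symbol named a single gene beginning with Slc and a family number were taken, apart from 5 probe sets of Slc18a2, Slc4a2, Slc9a4 and Slc12a2, which serve histamine storage and acid secretion. This left 276 of the 15866 probe sets on the chip, for 224 of the 10411 genes named and 48 families, and 2 further probe sets that named more than 1 gene were not taken. Slc4a1ap, an adaptor that binds the anion exchanger, and Slc7a6os, a gene opposite Slc7a6, match the naming rule without being transporters and were kept. Oxyntic mucosa, which lines the acid-producing body of the stomach, had been scraped from female Sprague-Dawley rats, 8 weeks old per the labels. The treated rats had received octreotide LAR, a slow-release depot of the somatostatin analogue octreotide, at 5 mg per animal, and the controls the depot vehicle in the matching volume; the sample names give 21 days for both. Each of 3 treated chips carried RNA pooled from 2 animals, and the single vehicle chip carried RNA pooled from 8. The treated chips are called pools 1, 2 and 3.

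Most solute carriers of the plasma membrane draw on the sodium gradient made by the sodium pump, on proton gradients, or on the gradient of the substrate itself. Others sit in organelles: most members of the Slc25 family shuttle metabolites and nucleotides across the inner mitochondrial membrane. The Slc35 family brings activated sugars into the Golgi apparatus for glycosylation. In the gastric lining, epithelial cells use bicarbonate, chloride and proton exchangers in the handling of acid and base, and mitochondria-rich parietal cells have a high demand for metabolite exchange.

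No member of this set of solute carriers passed the test between octreotide LAR and vehicle. Of the 276 probe sets, 143, for 125 genes, were bright enough on average over the 4 chips to be tested (a level at or above the 40th percentile, a signal of 144.7). With limma and Benjamini-Hochberg adjustment over all 9520 probe sets tested, 0 of the 143 had an adjusted p under 0.05, and the share called over all probe sets tested was 0.105%. At an unadjusted p under 0.05 there were 8 members, 4 higher (Slc22a18, Slc29a3, Slc39a7 and Slc16a3) and 4 lower (Slc44a2, Slc38a5, Slc25a39 and Slc35b2). That is 5.59% of the members tested, beside 4.57% of all probe sets tested, of which 2.86% were higher and 1.71% lower. The smallest adjusted p of any member was 0.699, and over the alternative settings the smallest ran from 0.23 (without pool 1) to 0.845 (no filter). With only 1 vehicle chip, the spread in the test is that between the treated pools, and an exact permutation of the 4 chips could not go below a one-sided p of 0.25. Fewer cells of a type and less RNA per cell cannot be told apart in such tissue samples.

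The members lay close to the vehicle chip as a set. Their median log2 difference, on the log2(signal + 16) scale, was -0.03, with medians of -0.03, -0.02 and -0.06 on pools 1, 2 and 3, beside -0.00 for all probe sets tested. The middle 90% of members ran from -0.55 to 0.44, and of all probe sets tested from -0.43 to 0.49. Signals lay above the vehicle chip on all pools for 32 members (22.4%, against 25% of all tested) and below it on all pools for 42 (29.4%, against 24.0%). The remaining 69 lay on both sides of it. The treated mean was lower for 80 members (55.9%, against 50.6%). The 95% interval of a member's difference reached a median of 0.55 to either side, equal to 1.46-fold, unadjusted for the number of probe sets. Differences smaller than that were mostly not detectable with these chips even for a probe set taken alone. Larger ones could also fail the adjusted test, as Slc29a3 did at 2.02-fold. For 111 of the 143 the whole interval lay within a 2-fold change (1 on the log2 scale) in either direction. The same held for 7748 of all 9520 probe sets tested. The treated pools differed among themselves by a median SD of 0.18 for members and 0.18 for all probe sets tested.

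**Figure D1:**
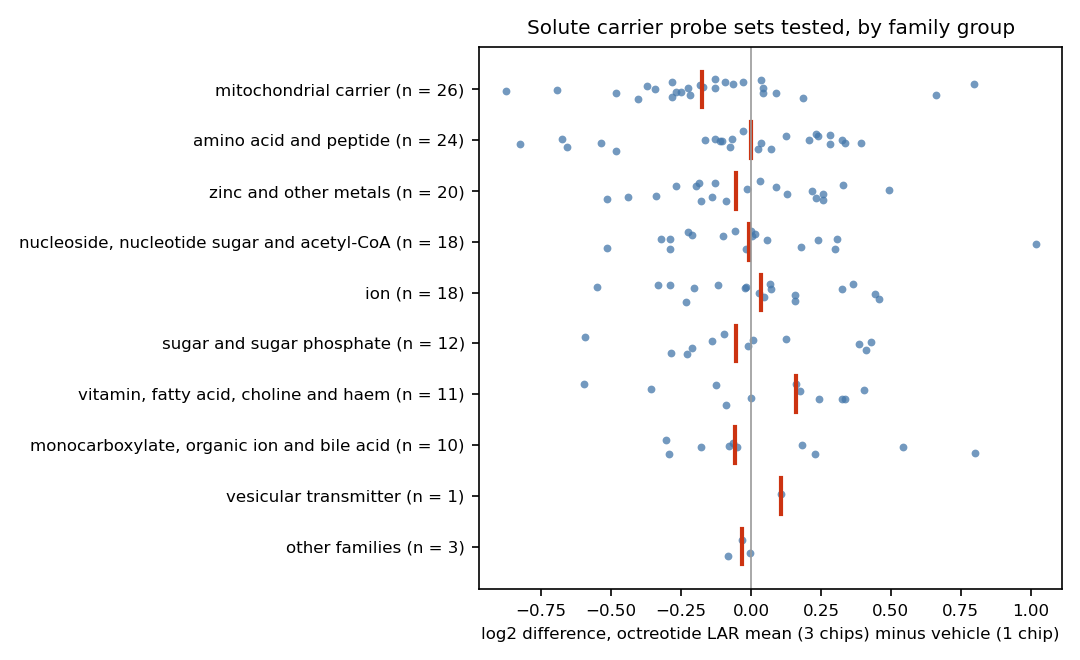
Each point is 1 of the 143 solute carrier probe sets tested, placed by its log2 difference (mean of 3 treated pools minus the vehicle chip, horizontal axis) within its family group, with vertical scatter only to separate points. Red bars are group medians, which run from -0.18 for the mitochondrial carriers to 0.16 for the vitamin, fatty acid, choline and haem group.

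Transporters of choline, vitamins and fatty acids held the member with the smallest p. Slc44a2, a choline transporter-like protein, had 1956 on the vehicle chip and 1234, 1362 and 1273 on pools 1, 2 and 3. All pools lay below the vehicle value and close to each other, by -0.60 on the log2 scale (95% interval -0.99 to -0.20, 1.51-fold; unadjusted p = 0.0059, limma adjusted p = 0.699, and 0.245 to 0.975 over the alternatives). Its relative Slc44a4, which carries thiamine pyrophosphate, lay the other way on all pools, with 1806, 2090 and 1861 against 1526, a difference of 0.32 (95% interval -0.06 to 0.71). Slc23a2, the sodium-coupled vitamin C transporter, had 1499 on the vehicle chip, 1055 and 1047 on pools 1 and 3, and 1433 on pool 2. Pool 2 thus lay near the vehicle value while the others lay below it. The fatty acid transport proteins of family 27, which also activate fatty acids, had 3 probe sets tested, all with a higher treated mean (0.16 for Slc27a1, 0.34 for Slc27a2 and 0.17 for Slc27a4 on the log2 scale). The vehicle signal of Slc27a2 (129.2) was under the filter level, so it entered the test through its treated pools. Only Slc27a1 and Slc27a4 lay above the vehicle chip on every pool. The group's median of 0.16 came from 11 probe sets, 6 of them higher and 5 lower. It was -0.00 when the filter was raised to the 60th percentile and 0.07 without pool 2.

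Among carriers of monocarboxylates and organic ions, Slc22a18, an imprinted gene for a transporter of the organic cation type, had 623.9 on the vehicle chip and 991.9, 903.2 and 859.3 on the pools. Its difference of 0.54 (95% interval 0.10 to 0.98) excluded 0 on its own but did not pass over all probe sets (unadjusted p = 0.0195, limma adjusted p = 0.987, and 0.612 to 0.9998 over the alternatives). Slc16a3, the lactate exporter of glycolytic cells, had 118.2 against 194, 265.9 and 199.8. Its vehicle signal lay under the filter level, so it entered the test through its treated pools. Its difference was 0.80 (95% interval 0.05 to 1.55) and ran from 0.63 to 0.88 over the alternatives. Its relative Slc16a7 lay below the vehicle chip on all pools, with 2030 against 1832, 1547 and 1558 (log2 difference -0.30, 95% interval -0.70 to 0.09). Slc16a1, the widespread lactate and pyruvate carrier, had 745.3 against 634.5, 748.4 and 785.1, on both sides of the vehicle value. Slc22a5, which takes up carnitine, had 317.6 against 246.8, 302.5 and 288.6 (-0.18, 95% interval -0.79 to 0.43). Over the 10 probe sets tested here, 4 were higher and 6 lower, with a median of -0.06 that was 0.02 without pool 1 and 0.04 without pool 3.

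Carriers of nucleosides and of nucleotide sugars went both ways, with 9 of 18 tested probe sets higher and a median of -0.01. Slc29a3, the nucleoside transporter of lysosomes, had the largest positive difference of any member tested, 1.02 on the log2 scale. Its signals were 82.3 on the vehicle chip and 202, 206.9 and 146 on the pools, all treated values above the vehicle value. The vehicle signal was under the filter level and the interval was wide, from 0.18 to 1.85 (unadjusted p = 0.0203, limma adjusted p = 0.987, and 0.687 to 0.9998 over the alternatives). Its relatives at the cell surface had 139.9 against 129.1, 170.7 and 187.5 for Slc29a1 and 137.1 against 249.6, 162.1 and 109.1 for Slc29a2, both on either side of the vehicle chip. The vehicle signals of both were also under the filter level.

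Of the Golgi transporters, Slc35b2, which imports the sulphate donor used to sulphate mucins and proteoglycans, had 624 on the vehicle chip and 425.1, 395.4 and 480.3 on the pools. Its difference was -0.51, with an interval whose upper end lay at -0.00 (unadjusted p = 0.0498, limma adjusted p = 0.9998, and 0.731 to 1 over the alternatives). Slc35c1, the importer of activated fucose, had 739.8 against 835.5, 950.7 and 965.9, above the vehicle chip on all pools (0.30, 95% interval -0.14 to 0.74). Slc35a1, which imports activated sialic acid, had 3 probe sets tested. The brightest had 1417 against 1313, 1426 and 1467, a mean difference of -0.02 (95% interval -0.41 to 0.38). Another had 533.2 against 445.5, 449.2 and 406.5, below the vehicle chip on all pools (-0.29). The last had 279.9 against 316.3, 265.4 and 262.8 (0.00). Slc33a1, which brings acetyl-CoA into the endoplasmic reticulum, had 728.7 against 534.9, 586 and 619.5, with every pool below the vehicle value (-0.32).

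Amino acid and peptide transporters were evenly split, 12 higher and 12 lower of 24 tested, with a median of -0.00 that was 0.03 at the 60th percentile filter. Slc38a5, a sodium-coupled transporter of glutamine and other neutral amino acids, had 558.9 on the vehicle chip and 357.5, 383.2 and 296.9 on the pools. It lay below the vehicle chip throughout, by -0.68 (95% interval -1.23 to -0.12; unadjusted p = 0.021, limma adjusted p = 0.987, and 0.436 to 0.9999 over the alternatives). Slc38a2, of the same family, had 1579 against 1424, 1660 and 1928, a difference of 0.07 (95% interval -0.36 to 0.50). The glutamine transporter Slc1a5 had 450.7 against 645.6, 537 and 441.2, higher on pools 1 and 2 only (0.24, 95% interval -0.31 to 0.79). Slc3a2, the heavy chain that carries several Slc7 light chains to the cell surface, had 2757 against 2682, 2579 and 2321. These lay slightly under the vehicle value, at -0.13 with an interval from -0.50 to 0.24. Its light chain partners Slc7a5 and Slc7a8 had 131.6 against 224.2, 172.7 and 111.8, and 765.2 against 711.6, 687.3 and 863.5, and both lay on either side of the vehicle chip. The vehicle signal of Slc7a5 was under the filter level. Slc3a1, the heavy chain of the cystine transporter, had 283.5 against 257.6, 234.3 and 261.9. Slc15a4, which exports histidine and small peptides from lysosomes, split the pools: against 376.1 on the vehicle chip, pool 1 had 424.2, pool 2 had 188.4 and pool 3 had 203.8.

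Sugar transporters gave no common direction, with 5 of 12 tested probe sets of families 2, 5, 37, 45 and 50 higher. Slc2a1, the basal glucose transporter, had 492.5 on the vehicle chip and 829, 519.1 and 691 on the pools. It was above the vehicle value on all pools, but pool 2 lay within 0.07 of it on the log2 scale (mean difference 0.43, 95% interval -0.13 to 0.99). Slc2a3, a high-affinity glucose transporter, lay below it on all pools, with 151.3, 122.3 and 120.1 against 205.2 (-0.59, 95% interval -1.42 to 0.23). Of the insulin-responsive Slc2a4, 1 probe set had 1899 against 1901, 1605 and 1386 (-0.23, 95% interval -0.66 to 0.20), and the other had 297.5 against 369.2, 296.4 and 315.6 (0.12). Slc5a5, which belongs to the sodium-glucose cotransporter family but carries iodide and is known from gastric surface epithelium, had 5285 against 5313, 5703 and 4753. Its difference was -0.01 with an interval from -0.37 to 0.34, among the narrowest of the members. Slc5a6, the sodium-dependent multivitamin transporter, had 846 against 732.2, 636.6 and 709.9, all below the vehicle chip (-0.28).

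The ion carriers left after removal of the acid secretion genes had 18 probe sets tested, 10 higher and 8 lower, with a median of 0.04 that was -0.02 without pool 2 and -0.02 without pool 3. Slc4a4, a sodium bicarbonate cotransporter, had the smallest p among them with 413.2 on the vehicle chip and 652.1, 632.3 and 456.8 on the pools. All lay above the vehicle value, by 0.46 on average (95% interval -0.09 to 1.01); the other Slc4a4 probe set had 297.5 against 276.1, 368.6 and 245.8 and a difference of -0.02. Slc8b1, the sodium-calcium exchanger of mitochondria, had 241.9 against 321, 428.7 and 272.3 (0.44, 95% interval -0.21 to 1.10). The sodium-proton exchangers of apical membranes showed small differences: Slc9a2 had 1264 against 1099, 1404 and 1263 (-0.02, 95% interval -0.45 to 0.41). Slc9a3 had 433.1 against 436.8, 417.2 and 515.6 (0.07, 95% interval -0.46 to 0.59). Slc12a7, a potassium-chloride cotransporter, had 1589 against 1401, 1401 and 1594 (-0.12, 95% interval -0.52 to 0.28). Slc20a1, which takes up phosphate, had 876.5 against 841.5, 870.1 and 973.2 (0.03, 95% interval -0.41 to 0.46). The adaptor Slc4a1ap had 364.4 against 260.3, 314.9 and 176.2, below the vehicle chip on all pools (-0.55, 95% interval -1.27 to 0.17).

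Of the metal transporters, 9 of 20 tested probe sets were higher and 11 lower, with a median of -0.05 that was 0.06 when dim probe sets were kept. Slc39a7, which releases zinc from the endoplasmic reticulum and Golgi, had 917.5 on the vehicle chip and 1108, 1549 and 1269 on the pools. It lay above the vehicle chip on all pools, most on pool 2 (0.49, 95% interval 0.03 to 0.95; unadjusted p = 0.0384, limma adjusted p = 0.9998, and 0.23 to 1 over the alternatives). The other zinc importers tested stayed nearer to the vehicle value, from -0.20 for Slc39a13 to 0.22 for Slc39a1. In the Slc30 family, which moves zinc out of the cytosol, Slc30a3, Slc30a4 and Slc30a5 lay above the vehicle chip on all pools with differences of 0.26, 0.26 and 0.23. Slc30a6 had 412.9 against 194.6, 384.7 and 357.7, below it on all pools and far below on pool 1 only. Slc39a4, the zinc importer of absorptive epithelium, lay under the level needed for testing. Its signals were 266.8 against 68.7, 135.6 and 144.8. In the fit without a filter its difference was -1.15 (95% interval -2.35 to 0.04; limma adjusted p = 0.9996). One of 2 tested probe sets of Slc31a1, the copper importer, had 1072 against 841.9, 988.5 and 721.3 (-0.34, 95% interval -0.81 to 0.13). The other had 359.5 against 193.5, 205.3 and 374.1 (-0.52, 95% interval -1.29 to 0.26). Slc40a1, the iron exporter ferroportin, had 2 probe sets tested, with differences of -0.27 and -0.09. The iron importer Slc11a2 also had 2, with differences of 0.33 and -0.18. Among the 6 tested probe sets of metal handling genes outside the solute carriers, 0 passed and 3 were higher. Hamp, the iron hormone hepcidin, had 1293 against 2239, 1598 and 2372 (0.65, unadjusted p = 0.0106, limma adjusted p = 0.886). Mt2A, a metallothionein, had 903.3 against 1845, 930.8 and 1294 (0.52). Atp7b was also higher (0.45), while the Tfrc probe sets (-0.40 and -0.04) and Mtf1 (-0.34) were lower.

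The mitochondrial carriers, taken here as the whole Slc25 family by number, had more members below the vehicle chip than above it. Of 26 tested, 19 had a lower treated mean, and over all probe sets tested 50.6% did. On all pools, 13 lay below the vehicle chip and 3 above it, beside 24.0% and 25% of all probe sets tested. No difference between this family and other genes was tested. The median was -0.18 on the log2 scale, and the medians on pools 1, 2 and 3 were -0.09, -0.16 and -0.13. No carrier passed, and 1, Slc25a39, had an unadjusted p under 0.05. The median kept its sign under all 10 alternative fits, between -0.21 with quantile normalization and -0.11 without pool 2. Slc25a39, which imports glutathione into mitochondria, had 4034 on the vehicle chip and 2841, 3479 and 2846 on the pools (-0.41, 95% interval -0.79 to -0.03; unadjusted p = 0.0384, limma adjusted p = 0.9998, and 0.523 to 1 over the alternatives). Slc25a21, a carrier of oxodicarboxylates, had 225.9 against 129.3, 141.4 and 130.6, the only one of the 143 tested probe sets at least 1.5-fold below the vehicle chip on every pool (0.699%, against 0.420% of all tested). Slc25a22, a glutamate carrier, had 476.4 against 393.3, 297.1 and 325.1 (-0.48).

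Slc25a4 and Slc25a5 encode the ADP/ATP exchangers that deliver ATP to the cytosol. Slc25a4 had 4541 against 4441, 3368 and 3473 (-0.28, 95% interval -0.68 to 0.12), with pool 1 near the vehicle value. Slc25a5 had 17438.4 against 19910.9, 17162.1 and 16995.5, a mean difference of 0.04 that was -0.04 with quantile normalization. Slc25a3, the phosphate carrier, had 22270.1 against 23091.5, 17281.2 and 19319.6 (-0.17, 95% interval -0.54 to 0.20). The carriers that lay above the vehicle chip on all pools were Slc25a14, an uncoupling protein relative, Slc25a20, which imports acylcarnitines for fatty acid oxidation, and Slc25a33, a pyrimidine nucleotide carrier. Slc25a14 had 90.8 against 160.9, 174.6 and 173.9 (0.80, 95% interval -0.01 to 1.61), with a vehicle signal under the filter level. Slc25a20 had 157 against 341.6, 215.7 and 230.4 (0.66, 95% interval -0.07 to 1.39). Slc16a3, Slc25a14 and Slc29a3 were the tested members at least 1.5-fold above the vehicle chip on every pool (2.10% of the 143 probe sets, 1.13% of all tested), and all of these had vehicle signals under the filter level. Probe sets of the parietal cell markers Atp4a, Atp4b, Kcnq1 and Kcne2 had a median difference of -0.29 on the same chips (5 tested, 2 of them below the vehicle chip on all pools). The differences were -0.02 for Atp4a, -0.07 for Atp4b, -0.58 for Kcnq1, and -0.37 and -0.29 for the tested Kcne2 probe sets. The summed signal of the parietal markers was 70644.7 on the vehicle chip and between 62754.5 and 74271.7 on the pools. The part of parietal cell content in the mitochondrial carrier values was not tested.

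**Figure D2:**
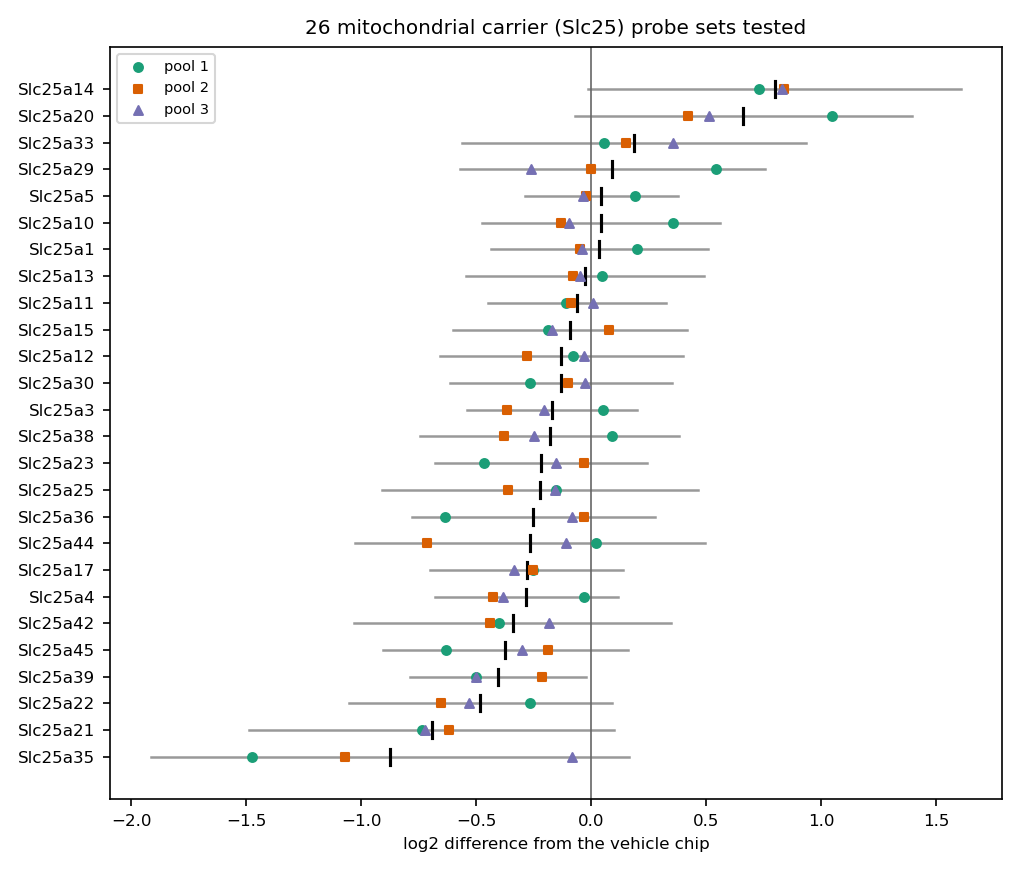
The 26 tested Slc25 probe sets, ordered by log2 difference from the vehicle chip (horizontal axis); coloured symbols are pools 1 to 3, black ticks their mean and grey lines the 95% interval of the limma fit. Means of 19 carriers lie left of 0, and the interval of 1 of them, Slc25a39, excludes 0.

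**Figure D3:**
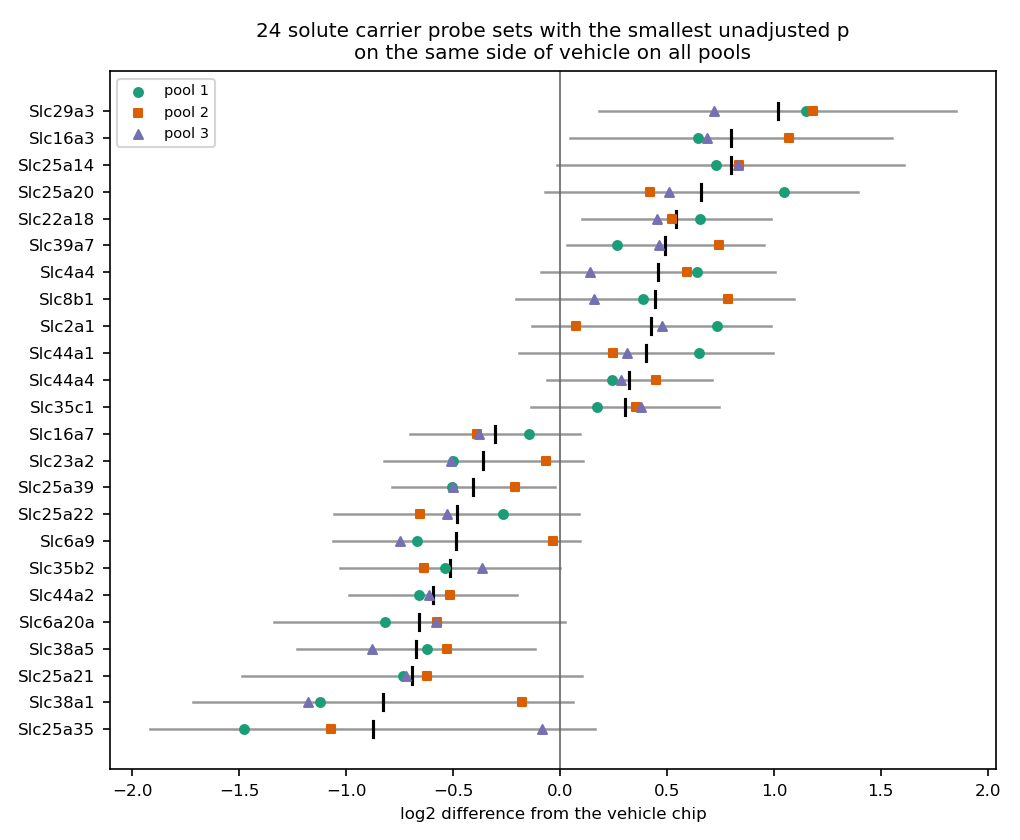
The 12 higher and 12 lower probe sets with the smallest unadjusted p among members on the same side of the vehicle chip on all pools, with symbols and lines as for the mitochondrial carriers (horizontal axis, log2 difference from the vehicle chip). Most intervals include 0, and pool 3 of Slc25a35 and pool 2 of Slc38a1 and Slc6a9 lie near 0 while their other pools lie lower.

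The smaller families had few probe sets tested. Slc17a5, which exports sialic acid from lysosomes and belongs to a family with vesicular transmitter carriers, had 358.8 against 355.9, 354.8 and 462.5 (0.11, 95% interval -0.46 to 0.68). Only pool 3 lay above the vehicle value. The urea transporter Slc14a2 had 211.2 against 151.5, 291.9 and 175.4 (-0.08, 95% interval -0.91 to 0.74). Slc66a2, of a family related to lysosomal amino acid exporters, had 578.2 against 467.7, 598.3 and 643.2 (-0.03, 95% interval -0.56 to 0.49). Both lay on either side of the vehicle chip.

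Probe sets of the same gene did not always share a direction. Of the member genes, 16 had 2 or more probe sets tested, and the probe sets differed most for Slc38a1, Slc6a9, Slc6a20a, Slc11a2 and Slc44a1. Slc38a1, a neutral amino acid transporter, had 304.4 against 131.3, 266.8 and 125.6 on one probe set, a difference of -0.83 (95% interval -1.72 to 0.06). The other Slc38a1 probe set had 315.3 against 349.5, 428.5 and 387.5, a difference of 0.28 (95% interval -0.27 to 0.84). Both kept to one side of the vehicle chip on all pools, and the sides were opposite. Slc6a9, a glycine transporter, showed the same opposition, with 963.7 against 599.7, 941.8 and 566.5 on one probe set (-0.48) and 161.8 against 199.8, 239.1 and 215.5 on the other (0.39). Slc6a20a, a transporter of proline and other imino acids, had 314.5 against 171.5, 205.8 and 205.3 on one (-0.66, 95% interval -1.34 to 0.02). The other had 333.1 against 296, 465 and 418.8 (0.21), above the vehicle chip on pools 2 and 3. The choline transporter Slc44a1 had 3 probe sets, with differences of 0.40, 0.24 and -0.09. Which transcripts each probe set detects was not analysed here, so no direction is given for these genes.

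**Figure D4:**
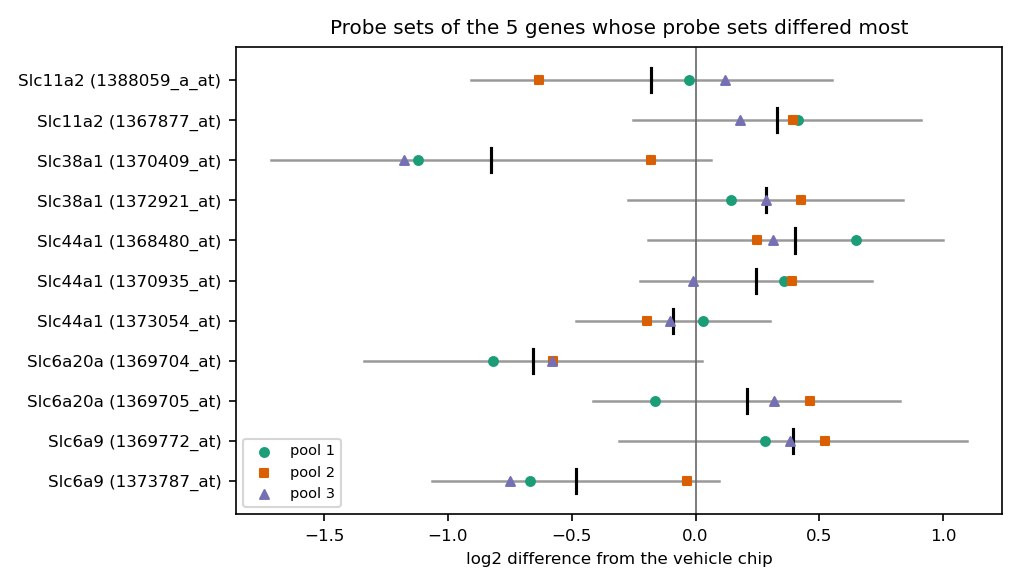
Probe sets of the 5 genes whose tested probe sets differed most, with the log2 difference from the vehicle chip on the horizontal axis, pools as symbols, means as black ticks and 95% intervals as grey lines. For Slc38a1 and Slc6a9, 1 probe set lies left and 1 right of 0 on every pool.

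Some carriers differed more between the treated pools than from the vehicle chip. The range over pools had a median of 0.35 on the log2 scale over the members tested and was largest for Slc25a35, an orphan mitochondrial carrier, at 1.39. It had 255.8 on the vehicle chip, 81.7 and 113.6 on pools 1 and 2, and 240.2 on pool 3. Next came Slc35b1, which carries ATP into the endoplasmic reticulum, with a range of 1.19 on 1 of its probe sets and signals of 289.3 against 181.5, 435.4 and 344.2. Slc15a4 followed at 1.11, with the signals given above. Pool 2 was high and pool 3 low for Slc39a13, a zinc transporter of the secretory pathway, with 793.2 against 722, 985.8 and 459.8. The sulphate transporter Slc26a1, with 139.2 against 176, 274.6 and 126.6, had the same order of pools, as did Slc27a2 with 129.2 against 160.1, 251.2 and 115.2. Slc16a10, an aromatic amino acid carrier, shared that order too, with 211.1 against 182.9, 302.7 and 140.9. Slc29a2 alone among these 8 was highest on pool 1 and lowest on pool 3. The vehicle signals of Slc26a1, Slc27a2 and Slc29a2 were under the filter level.

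Other genes of membrane transport gave no call either. Of 8 tested probe sets of the sodium pump and its FXYD regulators, 5 were higher and 0 passed. One of 2 probe sets of the pump subunit Atp1b1 had 18516 against 15085.4, 15543.3 and 12635.3 (-0.37, unadjusted p = 0.0408, limma adjusted p = 0.9998), while the other had a difference of -0.14. Of 16 tested probe sets of ABC transporters, which use ATP directly, 7 were higher and 0 passed. Abca3, a lipid transporter, had 1572 against 766.6, 956.7 and 855.1, below the vehicle chip on all pools (-0.87, 95% interval -1.31 to -0.42; unadjusted p = 0.00091, limma adjusted p = 0.259). The 5 tested probe sets of the organic anion transporter family Slco had a median of 0.29, with 3 above the vehicle chip on all pools and 1 below. The Slco3a1 probe sets went opposite ways (0.29 and -0.35), and Slco1a4 had a difference of -0.29. Of the aquaporin water channels 3 were tested and of the hexokinases 1, with 0 passing.

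Markers of some other cell types differed between the groups on the same chips. The 7 tested smooth muscle probe sets had a median of 0.00 with 0 called, and 0 of the 2 tested immune probe sets were called. Of the squamous forestomach list 12 of 13 probe sets were tested, all 12 above the vehicle chip on all pools, 6 of them called higher, with a summed signal of 2120 on the vehicle chip and 6507 to 10372.3 on the pools. Of these 12, 5 had a vehicle signal under the filter level and entered the test through their treated pools. In contrast, of the enterochromaffin-like cell list all 5 probe sets lay below it on all pools (summed signal 15457.1 against 7288 to 7902). Of these, 1 was called lower, Hdc (-1.59, limma adjusted p = 0.00268). The list includes Slc18a2, which was left out of the members. Its probe sets had differences of -1.14 and -0.83 (limma adjusted p = 0.0556 and 0.9991). Among the labelled tissue's own markers, Atp4a, Atp4b, Pgc, Cblif, Muc5ac and Gkn1 had signals of at least 19108.9 on every chip. The parietal markers Kcnq1 and Kcne2 were dimmer. Kcnq1 had 2855 against 2037, 1460 and 2304 (-0.58), and the brightest Kcne2 probe set had 709.4 against 522.1, 528.3 and 588.1 (-0.37). The 3 surface mucous probe sets lay above the vehicle chip on all pools, with a median of 0.18. The chief cell marker Cym, the milk-clotting protease chymosin, had 19071.1 against 3952, 8204 and 7561 (-1.60, unadjusted p = 0.000102, limma adjusted p = 0.0696). Of the intestinal absorptive list, 3 of 8 probe sets were tested. Fabp2, a fatty acid binding protein of enterocytes, rose from 533.2 to 1082, 1488 and 1423 (1.28, limma adjusted p = 0.0475), while Fabp1 and Cdx2 lay on both sides of the vehicle chip. Of those not tested, Alpi, Si and Apoa4 had signals of at most 66 on any chip. Apoa1 had 95.8 against 16.9, 79.3 and 117.8, and Cdx1 had 97 against 79.5, 179.5 and 102.9. Of the pancreatic acinar list 6 of 9 were tested, 0 passed, 4 lay below the vehicle chip on all pools and the median was -0.87. Its summed signal was 54563.8 on the vehicle chip and 42814.5 to 54067.1 on the pools, most of it from Clps (48788.7 on the vehicle chip, difference -0.10). The other differences were -1.40 for Cel, -1.38 for Cpa1, -1.42 for Cela2a, -0.35 for Ctrb1 and -0.17 for Cela1. Of these, 3 had an unadjusted limma p under 0.05. The part of squamous tissue in the values of carriers above the vehicle chip, such as Slc2a1 and Slc16a3, was not tested.

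The remaining 133 probe sets, including all probe sets of 99 genes, were too dim for the test. They include the classic nutrient transporters of the absorptive intestine: Slc5a1, the sodium-glucose cotransporter, had 164.4 on the vehicle chip and 29.1, 140.3 and 12.7 on the pools. Slc15a1, the peptide transporter, had 41.9 against 19.1, 22.5 and 4.2, and Slc2a2 and Slc2a5, which carry glucose and fructose, had at most 117.6 on any chip. Slc10a2, the bile acid transporter of the ileum, had 17.7 against 116.3, 57.6 and 155.3. No fold is given for these 5 genes, whose signals are low enough for the pseudocount to weigh on it. In a fit of all probe sets without the filter, 0 of all 276 members passed after adjustment.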

How the data were processed

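Each of 4 Affymetrix RAE230A chips had a linear signal intensity for every probe set in the table the authors deposited. How signals were summarised and scaled is not given in the sources used here. Biotin-labelled cRNA was made from column-purified total RNA, per the labels' protocols. Per the file headers, which are text fields of other kinds, all chips shared 1 lot and wash protocol, and each ran in its own fluidics module, so module and chip cannot be told apart. Signals were used as log2(signal + 16) with no further scaling. Groups came from the sample titles; the vehicle sample's source name also mentions octreotide LAR. Probe sets whose mean log2 value was under the 40th percentile were left out (9520 kept), and limma 3.58.1 in R 4.3.3 (lmFit, eBayes with trend; 2 residual and 11.5 prior degrees of freedom) compared 3 treated chips with 1 vehicle chip. Tests were two-sided and adjusted by Benjamini-Hochberg. The vehicle group's spread is taken to equal that of the treated pools, although the vehicle chip pooled 8 animals and each treated chip 2. The number of chips limits the precision, and p-values measure the spread between pools. The test was run on simulated chips that were all given the spread of the treated pools. Such a run cannot show whether the vehicle chip has that spread. Symbols came from the platform annotation, and all 276 members matched the GRCr8 gene table under the same symbol. Detection calls were not used here. The member genes, family groups and other lists were chosen with earlier results of these data known. The text names members past the threshold, the 12 with the smallest p in each direction on the same side on all pools, 2 per family group, the 8 with the largest range over pools, a panel of 41 genes, and the 5 genes whose probe sets differ most. Abca3, Slco3a1, Slco1a4, Hamp, Mt2A, Fabp2, Cym, Atp1b1 and other members named as examples were chosen after their values were seen. No sequence is shown, since no value here bears on one.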

Additional observations from a re-analysis of the deposited data

How the results depend on the processing

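No paired analysis was possible because the groups share only replicate number 1. The count of solute carrier probe sets called was 0 under all 11 alternatives. These were pseudocount 1 or 64, no filter or the 60th percentile, quantile normalization and centring on the 75th percentile. The others were no trend of the spread, 1 probe set per gene, and leaving out each pool. The median log2 difference of the members was -0.0513 with no filter and -0.0563 at the 60th percentile. It lay between -0.0316 and -0.0535 when a pool was left out, lowest without pool 2. Of 614 values of named probe sets under alternatives, 593 kept their direction, none crossed the threshold and 21 changed sign. With quantile normalization Slc25a5 was at -0.0418 and Slc5a5 at 0.0168. The other sign changes came when a pool was left out, with log2 differences from -0.3287 to 0.0473 for 1 Slc11a2 probe set, -0.3436 to 0.0956 for Slc14a2, -0.1105 to 0.0397 for Slc16a1, -0.3624 to 0.1488 for Slc16a10, -0.0133 to 0.1706 for Slc17a5 and -0.0340 to 0.0690 for Slc20a1. They ran from -0.0301 to 0.0841 for Slc25a5, -0.0366 to 0.5065 for Slc29a2, -0.0495 to 0.0294 for 1 Slc35a1 probe set, -0.1949 to 0.4014 for 1 Slc35b1 probe set, -0.0376 to 0.1786 for Slc38a2 and -0.4495 to 0.0876 for Slc39a13. For Slc5a5 they ran from -0.0726 to 0.0585, for Slc66a2 from -0.1244 to 0.0989, for Slc7a8 from -0.1270 to 0.0342, for Slc9a2 from -0.0996 to 0.0745 and for Slc9a3 from -0.0201 to 0.1276. The cause was not tested. Over all probe sets tested, 31 to 55 probe sets were called when a pool was left out and 0 to 11 under the other alternatives, against 10. The vehicle chip is shared by all these fits. Signal over background limits the 10 tested members whose vehicle signal lay under 144.7.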
